A study of Mus musculus with 5 samples.

Results

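TLX, the orphan nuclear receptor encoded by Nr2e1, keeps neural stem cells undifferentiated and is known mainly as a repressor that recruits histone demethylase and deacetylase complexes. Of the 7458 TLX peaks called in mouse neural stem cells (NSC), 457 overlapped no peak of acetylated lysine 27 of histone H3 (H3K27ac) in brain tumour stem cells (BTSC) or in NSC. These 457 peaks, 6.13% of the list, are called unacetylated here, and the other 7001 are called acetylated. The sites were chosen by the H3K27ac peak calls alone: a single base pair shared with an H3K27ac peak of either culture made a TLX peak acetylated. The absence of the mark and the distance to it are therefore descriptions, fixed by the choice of sites.

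The libraries described are TLX in BTSC, TLX in NSC, H3K27ac in BTSC and H3K27ac in NSC, with 1 library each. For the TLX libraries the cultures had been stably transduced with a retrovirus for TLX-3xTY1, and the tag was precipitated with a TY1 antibody, so the binding is that of an added, tagged protein. The H3K27ac libraries came from cells that had not been transduced. H3K27ac, deposited by the p300 and CBP acetyltransferases, marks active promoters and enhancers, and a site without it can be silent, bound by a repressor, or active in another cell type. The list of BTSC TLX held 1436 peaks, that of BTSC H3K27ac 31597 and that of NSC H3K27ac 31266. Sequencing depth is unknown, so a peak that is missing from a list was not called there at that library's depth. With 1 library per group no difference has a replicate check or a test. The 95% intervals below are exact binomial for shares and order-statistic intervals for medians, and they cover counting error only.

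Only 13 of 439 unacetylated sites (2.96%, 1.59 to 5.01) reached a promoter window, taken from 250 bases before to 50 bases after an annotated start, against 1995 of 6744 acetylated sites (29.6%, 28.5 to 30.7) and 28% of both together. Sites without a window table for their chromosome are not in these counts. The windows belonged to 9 protein-coding genes and 4 long noncoding RNA genes. The bases before the start that lay inside the peak are shown for 5 of them, on the strand of the gene (RefSeq, GRCm38.p6, the assembly of mm10): the strongest at a protein-coding gene (Slc10a6, chr5:103629404-103629653, minus strand), the 1 that was also called in BTSC (Gm33448, chr6:100163325-100163574, minus strand), the 1 holding the core TLX motif AAGTCA (Rasgrp3, chr17:75465288-75465537, plus strand), and those of the receptor gene Epha3 (chr16:63864176-63864376, minus strand) and the synaptic gene Clstn2 (chr9:98033168-98033297, minus strand). Capitals mark AAGTCA or its complement TGACTT.
Slc10a6: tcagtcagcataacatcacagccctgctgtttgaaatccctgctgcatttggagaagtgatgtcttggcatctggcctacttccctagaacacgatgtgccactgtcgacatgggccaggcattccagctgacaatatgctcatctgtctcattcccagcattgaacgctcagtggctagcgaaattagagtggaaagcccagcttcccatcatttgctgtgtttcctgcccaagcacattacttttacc
Gm33448: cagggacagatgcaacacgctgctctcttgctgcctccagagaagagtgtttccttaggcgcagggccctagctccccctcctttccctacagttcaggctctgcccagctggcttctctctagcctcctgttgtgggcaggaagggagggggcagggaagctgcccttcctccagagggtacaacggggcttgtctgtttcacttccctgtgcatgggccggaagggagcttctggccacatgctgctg
Rasgrp3: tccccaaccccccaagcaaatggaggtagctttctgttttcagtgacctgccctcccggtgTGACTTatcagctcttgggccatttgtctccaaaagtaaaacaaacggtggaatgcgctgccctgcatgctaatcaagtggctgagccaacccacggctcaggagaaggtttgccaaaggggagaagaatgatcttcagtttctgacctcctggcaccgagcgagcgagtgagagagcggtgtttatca
Epha3: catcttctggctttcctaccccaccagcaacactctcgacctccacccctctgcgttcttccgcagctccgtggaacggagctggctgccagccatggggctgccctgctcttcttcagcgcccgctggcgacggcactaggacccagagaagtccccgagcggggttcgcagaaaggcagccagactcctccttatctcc
Clstn2: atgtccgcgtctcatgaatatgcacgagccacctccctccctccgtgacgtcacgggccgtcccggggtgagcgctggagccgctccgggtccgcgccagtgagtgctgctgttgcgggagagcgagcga

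The peaks at these windows were mostly weak. Slc10a6, a transporter of sulphated steroids, had the highest fold enrichment at a protein-coding gene, 7.84 over the caller's background in the NSC list, with the summit 196 bases before the start and the nearest H3K27ac 25327 bp away. Epha3, an ephrin receptor, had a fold of 4.97 with the summit 38 bases after its start and no H3K27ac of either culture within 93928 bp. Rasgrp3, an activator of Ras, had 4.47, and Clstn2, which encodes a calsyntenin of the synapse, had 3.82. Gm33448 had the highest fold of all 13, with 4.26 in the BTSC list and 9.56 in the NSC list. The remaining windows belonged to Zfp804b, Reln, Tesc, Cfap58, Erich6, Gm52396, Gm31486 and Gm36570, with folds from 3.20 to 4.40, and the peak at Reln, the gene of the secreted guidance protein reelin, reached its window by 1 bp.

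Motifs in these windows were counted on both strands. The motif AAGTCA was present in 1 of 13 windows with an unacetylated site (7.69%, 0.195 to 36.0), in 343 of 2629 with an acetylated site (13.0%) and in 15.1% of all 32851 windows. The E box CANNTG was in 10 of 13 windows with an unacetylated site, 57.5% of those with an acetylated site and 72.3% of all. TTGGC, the core of nuclear factor I sites, was in 6 of 13 unacetylated, 49.4% of acetylated and 46.7% of all windows. ACAAT, the core of Sox sites, was in 2 of 13 unacetylated, 18.3% of acetylated and 31.0% of all windows. The AP-1 motif TGACTCA was in none of the 13, which allows a share of up to 24.7%, in 3.39% of acetylated and in 5.20% of all windows. Each motif was searched on its own, so matches of different motifs may share bases. The median number of CG pairs per window was 9 (2 to 36) at unacetylated sites, 25 (24 to 25) at acetylated sites and 7 over all windows. With 13 windows the intervals span most of these values. Sequences of the sites outside promoter windows were not analysed here.

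One unacetylated site covered a microRNA hairpin, that of Mir6403 (chromosome 4, 134567723 to 134567851, minus strand), inside the mannosidase gene Man1c1. Its peak ran from 134567656 to 134568081, with a fold of 5.16 and H3K27ac 15634 bp away. The mature form is shown with its seed, bases 2 to 8, in capitals (RefSeq, GRCm38.p6).
mmu-miR-6403: gCAAAGGCgcuguuucccagug

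Most unacetylated sites lay far from gene ends. The summit was within 1 kb of an end of a protein-coding gene at 19 of 457 sites (4.16%, 2.52 to 6.42), against 2345 of 7001 acetylated sites (33.5%, 32.4 to 34.6) and 31.7% of the whole list. A further 208 (45.5%, 40.9 to 50.2) lay inside a protein-coding gene, against 38.9% (37.8 to 40.1) of acetylated sites and 39.3% of the list. Between protein-coding genes lay 230 (50.3%, 45.6 to 55.0), against 27.6% (26.6 to 28.7) of acetylated sites and 29% of the list. The median distance from summit to the nearest end of a protein-coding gene was 43569 bp (37169 to 51423) for unacetylated sites. It was 7506 bp (6660 to 8493) for acetylated sites. Gene ends are themselves frequent places of H3K27ac, so position and the rule that chose the sites are linked.

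**Figure D1:**
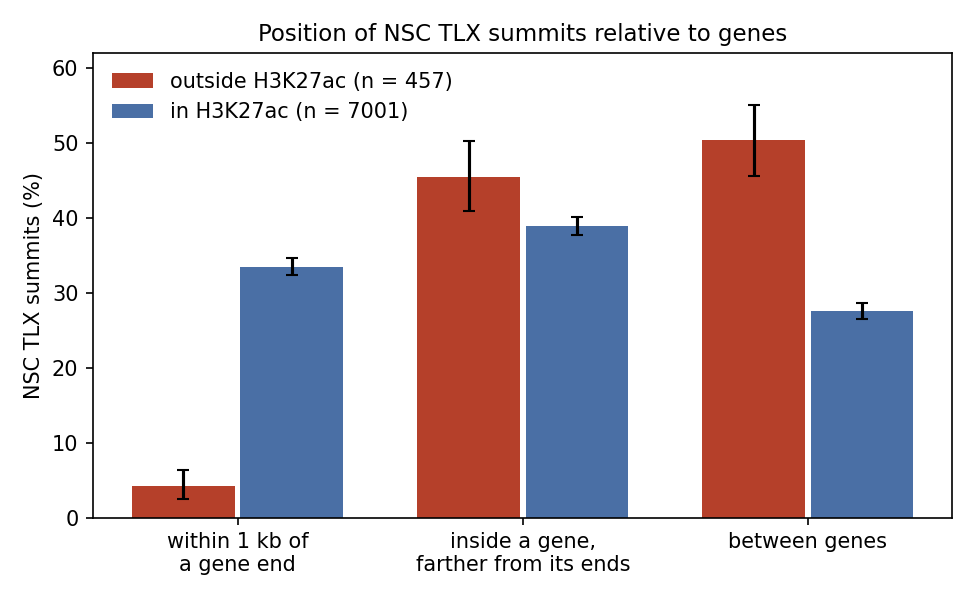
Share of NSC TLX summits within 1 kb of a gene end, farther inside a gene, or between genes, for sites outside H3K27ac of both cultures and for sites in H3K27ac. Only protein-coding genes count here, and error bars are exact 95% binomial intervals. Gene ends held 4.16% of unacetylated and 33.5% of acetylated summits, and stretches between genes held 50.3% of unacetylated and 27.6% of acetylated summits.

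Where unacetylated sites lay inside genes, the genes were long. The median length of the gene holding such a summit was 174739 bp (144542 to 212974), against 117432 bp (111535 to 122535) for acetylated summits inside genes, and 140 of 208 (67.3%, 60.5 to 73.6) lay in genes of 100 kb or longer, against 56.3% (54.4 to 58.2). Between genes, the nearest protein-coding gene was a median of 72307.5 bp away (55539 to 100730) for 226 unacetylated summits. For 1930 acetylated summits the median was 37581 bp (35052 to 41896). Summits on scaffolds have no such distance but stay in the totals of the next shares. A summit more than 100 kb from any protein-coding gene occurred in 98 of the 230 unacetylated sites between genes (42.6%, 36.1 to 49.3). Among the acetylated ones the share was 25.5% (23.6 to 27.5).

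The median distance to the nearest H3K27ac peak of either culture was 31018 bp (23228 to 35332), over the 455 sites with such a peak on the same chromosome or scaffold. H3K27ac lay within 1 kb of 12 sites, within 10 kb of 98 and more than 100 kb from 65. The median distance was 47714 bp (41578 to 54109) to BTSC H3K27ac and 35742 bp (31185 to 41119) to NSC H3K27ac, and the BTSC peak was the nearer for 186 sites and the NSC peak for 269. That nearest H3K27ac peak itself carried an NSC TLX peak for 92 of 455 sites (20.2%, 16.6 to 24.2), and of all H3K27ac peaks in both lists 19.7% did.

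The sites nearest to the threshold were a peak inside Maml3, which encodes a Notch coactivator, 4 bp from H3K27ac, with a fold of 15.1; a peak inside Shisa6 at 5 bp, with 6.12; and peaks inside Nos1ap at 20 bp, inside Tmigd3 at 38 bp and near Lclat1 at 61 bp. Just on the other side, the shortest overlap with H3K27ac was 1 bp, for a peak 18603 bp from Steap3. Next came 6 bp inside Vav2, 23 bp for a peak 90207 bp from Atp8b1, 28 bp inside Macrod2 and 37 bp inside Cyrib. The folds of these peaks ran from 3.07 to 4.59. At the far end stood sites 353367 bp from H3K27ac beyond Pcdh9, a protocadherin gene, 324081 bp in the desert nearest to Celf4, 313942 bp inside Etl4, and 473728 bp at Bmp2, the ligand gene of bone morphogenetic protein signalling. The Bmp2 site lay 181 bp from a gene end, at chromosome 2, 133552106 to 133552737, with a fold of 4.59. The greatest distance, 1121442 bp, belonged to a low-fold site of chromosome 2 described below.

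**Figure D2:**
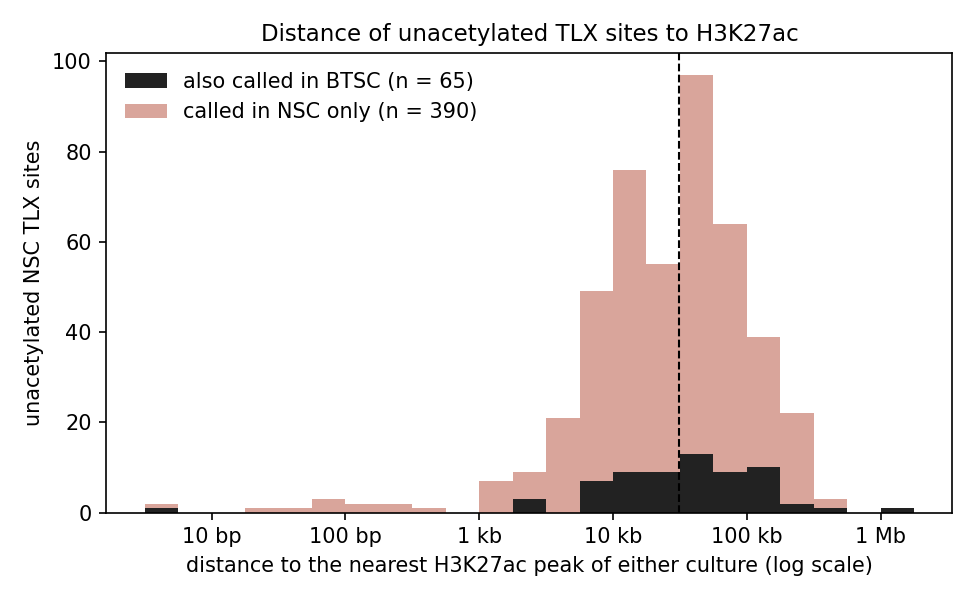
Number of unacetylated NSC TLX sites by distance to the nearest H3K27ac peak of either culture (log scale), split into those also called in BTSC and those called in NSC only; the dashed line is the median of 31018 bp. Most sites lie between 1 kb and 1 Mb from H3K27ac, and 12 of 455 lie within 1 kb.

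Unacetylated sites were not the weak end of the TLX list. Their median fold was 5.35 (5.16 to 5.55), against 4.78 (4.78 to 4.78) for acetylated sites, and a fold of 10 or more was reached by 29 of 457 (6.35%, 4.29 to 8.99), against 257 of 7001 (3.67%, 3.24 to 4.14) and 3.83% of the list. The list was cut into 10 deciles by −log10 q, a measure of the significance of a peak's call, which can be high at a low fold. In the top decile stood 78 unacetylated sites (17.1%, 13.7 to 20.8) and 668 acetylated ones (9.54%, 8.86 to 10.3). Among summits inside genes the intervals of the medians did not overlap, at 5.55 (5.35 to 5.93) at unacetylated and 4.94 (4.78 to 4.97) at acetylated sites. They overlapped between genes, at 5.19 (4.97 to 5.55) for unacetylated and 5.16 (5.16 to 5.35) for acetylated sites, and at gene ends, at 4.40 (3.63 to 5.16) for unacetylated and 4.56 (4.40 to 4.59) for acetylated sites.

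The unacetylated peaks were narrower, with a median of 517 bp (499 to 532) against 620 bp (613 to 628) for acetylated peaks, and in the top decile by q 678.5 bp (628 to 713) against 833.5 bp (810 to 860). A wider peak has more bases that can meet H3K27ac, so width is partly set by the rule. The pileup of fragments at the summit and the local background were solved from each peak's deposited fold and −log10 p, under a Poisson model. The model is an assumption, since the caller is not given in the sources used here, but the solved pileup was within 0.02 of a whole number for 99.96% of NSC peaks. The median pileup was 29 fragments (28 to 30) at unacetylated and 25 (25 to 25) at acetylated sites, over the same median background of 4.23 fragments.

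**Figure D3:**
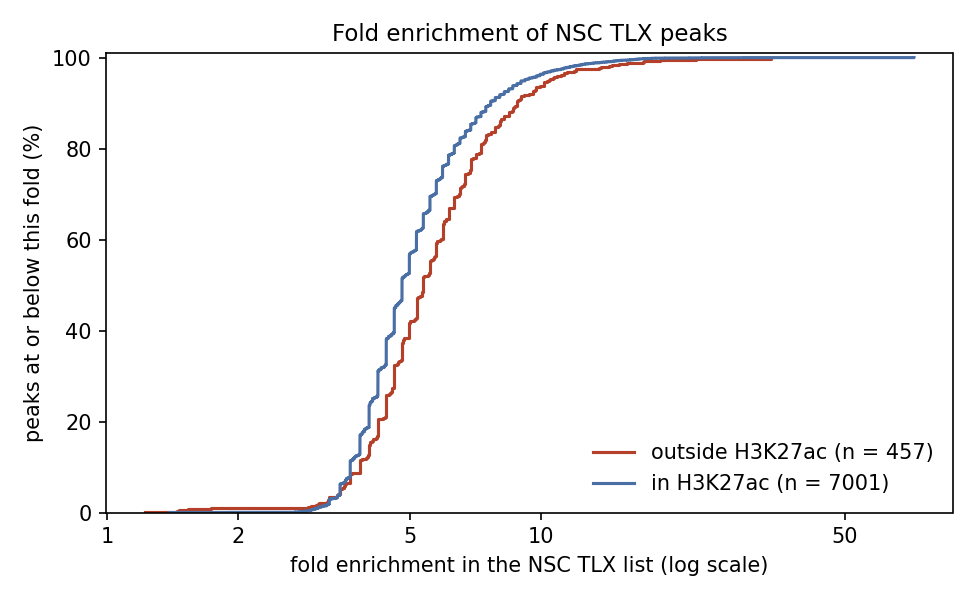
Cumulative share of NSC TLX peaks by fold enrichment (log scale) for sites outside H3K27ac and sites in H3K27ac. The curve of unacetylated sites lies to the right over most of its course, with medians of 5.35 for unacetylated and 4.78 for acetylated sites, and starts with 5 sites under a fold of 2.

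Of the 12 strongest unacetylated sites with a fold of 2 or more, ranked by −log10 q, 6 lay inside genes and 6 between genes. The leading one, inside Thsd4, which encodes a matrix protein that assembles fibrillin fibres, lay at chromosome 9, 60311472 to 60312338. It had folds of 25.2 in the BTSC list and 33.9 in the NSC list, with pileups of 109 fragments in BTSC and 176 in NSC. H3K27ac lay 43409 bp away in BTSC and 147391 bp away in NSC, and the nearest acetylated TLX site 337311 bp away. A peak inside Ctnna2, the gene of the neuronal alpha catenin that ties cadherins to actin, at chromosome 6, 77050455 to 77051169, had folds of 5.49 in the BTSC list and 18.7 in the NSC list and no H3K27ac within 171323 bp. A peak inside Gli3, a transcription factor of Hedgehog signalling, at chromosome 13, 15624582 to 15625250, had folds of 7.10 in the BTSC list and 14.6 in the NSC list. Each of these was called in both cultures. Folds come from separately called libraries of unknown depth, so their sizes are not compared between the lists.

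The Maml3 peak that nearly touched H3K27ac had folds of 8.93 in the BTSC list and 15.1 in the NSC list. A peak inside Auts2, a gene of neural development, had 10.1 in BTSC and 13.8 in NSC, and one inside Cradd, the gene of a death-domain adaptor, had 5.95 in BTSC and 13.6 in NSC. Between genes, a site on chromosome 18 at 27836618, 2082414 bp from its nearest protein-coding gene Celf4, had 9.61 in BTSC and 17.3 in NSC. A site 36900 bp from Atp6v1g3 on chromosome 1 had 19.1 in BTSC, where it ranked number 5 by −log10 q, and 11.9 in NSC. A site 16932 bp from Mturn had 5.72 in BTSC and 22.8 in NSC.

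At an NSC fold of 10 or more, 20 of 29 unacetylated sites (69.0%, 49.2 to 84.7) and 201 of 257 acetylated sites (78.2%, 72.7 to 83.1) were called in BTSC. Of the 12 strongest sites, 10 were. The exceptions were a peak 26214 bp from Ntn4, the gene of a secreted netrin, with a fold of 17.2, which lay only 199 bp from NSC H3K27ac but 96924 bp from BTSC H3K27ac, and a peak 585676 bp from the integrin gene Itga1, with a fold of 14.3.

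The 19 sites at gene ends had no BTSC partner, which allows a share of up to 17.6%. In acetylated sites at gene ends the share was 11.9% (10.6 to 13.2). The strongest lay 265 bp from the gene LOC102637806 (fold 10.9). Further sites lay at Atf6, a sensor of endoplasmic reticulum stress (5.33), Aanat, an enzyme of melatonin synthesis (5.16), and Iqch (4.59). Another lay at the homeobox gene Tlx2 (4.78), which is not related to Nr2e1 despite its name. A site inside Wnt5b, a Wnt ligand gene, counted through an end of the overlapping gene Gm52875, 598 bp away (4.40).

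Sites of low fold were few. A fold under 2 was found at 5 of 457 unacetylated sites (1.09%, 0.356 to 2.53), 3 of 7001 acetylated sites (0.0429%, 0.00884 to 0.125) and 0.107% of the list. The site at chromosome 2, 98666659 to 98667184, 1035483 bp from Lrrc4c, had folds of 1.35 in the BTSC list and 1.22 in the NSC list. Its solved pileup was 20114 fragments over a background of 14864 in BTSC and 22139 over 18116 in NSC, where the background at the Thsd4 site was 3.37 in BTSC and 4.23 in NSC. The 2 sites near the start of chromosome 9 were of the same kind: at 3023557 the pileup was 3452 over 2152 in BTSC and 3838 over 2624 in NSC, and at 3000514 it was 1687 over 1024 in BTSC and 1810 over 1247 in NSC. NSC H3K27ac lay 5733 bp from the first and 11930 bp from the second of these, and BTSC H3K27ac 310209 and 333283 bp. All 3 sites were among the 10 strongest BTSC TLX peaks by −log10 q, with ranks 1, 3 and 9.

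These places of chromosomes 2 and 9 are known for very high read depth in mouse sequencing libraries of many kinds, and the part that this plays here was not tested. The remaining 2 sites, on an unplaced scaffold, had folds of 1.73 and 1.54 over backgrounds of 98.1 and 73.9 fragments and were not called in BTSC. The background stood within 1% of the list's median at 317 of 457 unacetylated (69.4%, 64.9 to 73.6) and 74.6% (73.6 to 75.6) of acetylated sites. It was above 2 times that median at 7 of 457 unacetylated sites (1.53%, 0.618 to 3.13), the 5 of low fold among them, against 8 of 7001 acetylated sites (0.114%, 0.0493 to 0.225), so a raised background was rare in both, with the higher share among unacetylated sites.

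**Figure D4:**
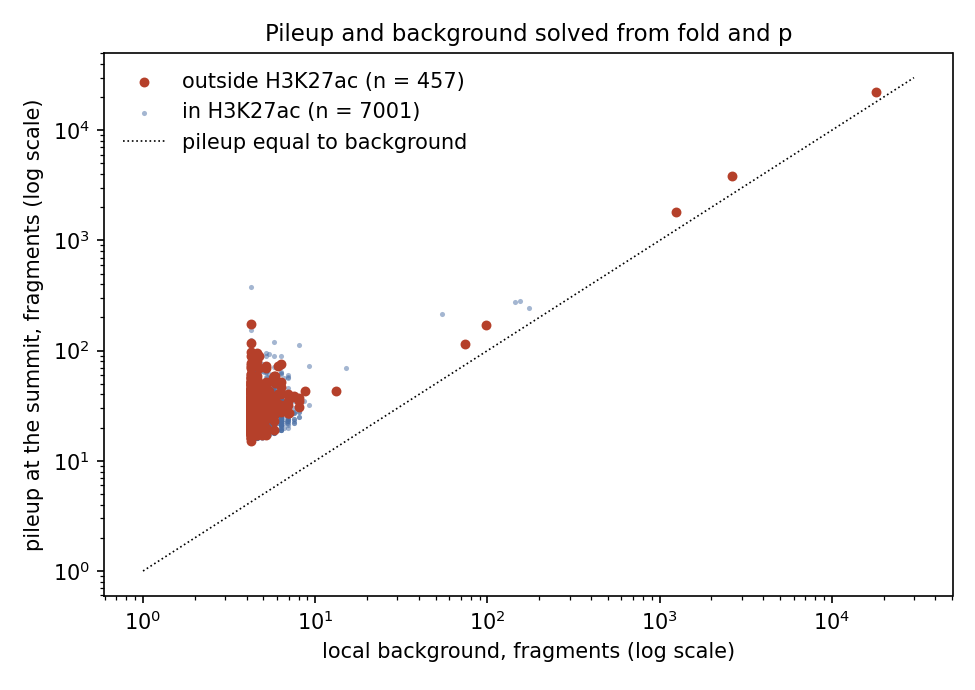
Pileup at the summit against local background, both in fragments on log scales and solved from the deposited fold and −log10 p, for NSC TLX peaks outside and in H3K27ac; the dotted line marks a pileup equal to the background. Most sites of both kinds share a background near 4.23, and the sites of chromosomes 2 and 9 lie far to the right, close to the dotted line.

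In the BTSC TLX list, 65 of the 457 unacetylated sites recurred, meaning that they overlapped a BTSC TLX peak (14.2%, 11.2 to 17.8), against 1111 of 7001 acetylated sites (15.9%, 15.0 to 16.7) and 15.8% of the NSC list. The difference was −1.65 percentage points (Newcombe 95% interval −4.68 to 1.95), so at this number of sites no difference was detectable. The BTSC TLX list took no part in choosing the sites. All 65 partners were also free of H3K27ac in both cultures over their own length, and in 63 of 65 pairs (96.9%, 89.3 to 99.6) the summits lay within 200 bp of each other, with a median offset of 49 bp. Among acetylated sites that recurred, 930 of 1111 (83.7%, 81.4 to 85.8) had summits that close. Unacetylated peaks as a whole were narrower, which limits how far apart overlapping summits can lie, and the part of width was not tested. The partners share bases with sites chosen for lacking H3K27ac, so their own lack of it is partly set by the rule.

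Recurrence was most frequent among strong peaks, and within deciles of −log10 q the share of unacetylated sites that recurred was the lower one in 9 of 10 deciles of the NSC list, all but decile 5 (8.57%, 1.80 to 23.1, against 6.89%, 5.14 to 9.01, of acetylated sites). In the top decile 42 of 78 unacetylated sites recurred (53.8%, 42.2 to 65.2), against 58.5% (54.7 to 62.3) of acetylated ones, and those intervals overlap. In deciles 6 to 9, 19 of 225 did (8.44%, 5.16 to 12.9), against 535 of 2758 (19.4%, 17.9 to 20.9). In the lowest 3 deciles none of 81 did, which allows up to 4.45%, against 88 of 2157 (4.08%), a share below that limit. With acetylated sites weighted to the q deciles of the unacetylated ones, their share became 22.0%; weighted to deciles of width, a choice made after seeing the data, it became 10.5%. Weighted to deciles of both together, also chosen after seeing the data, it became 17.7%, a difference of −3.49 points. The sign of the difference was thus positive under weighting to width alone and negative under the other weightings.

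**Figure D5:**
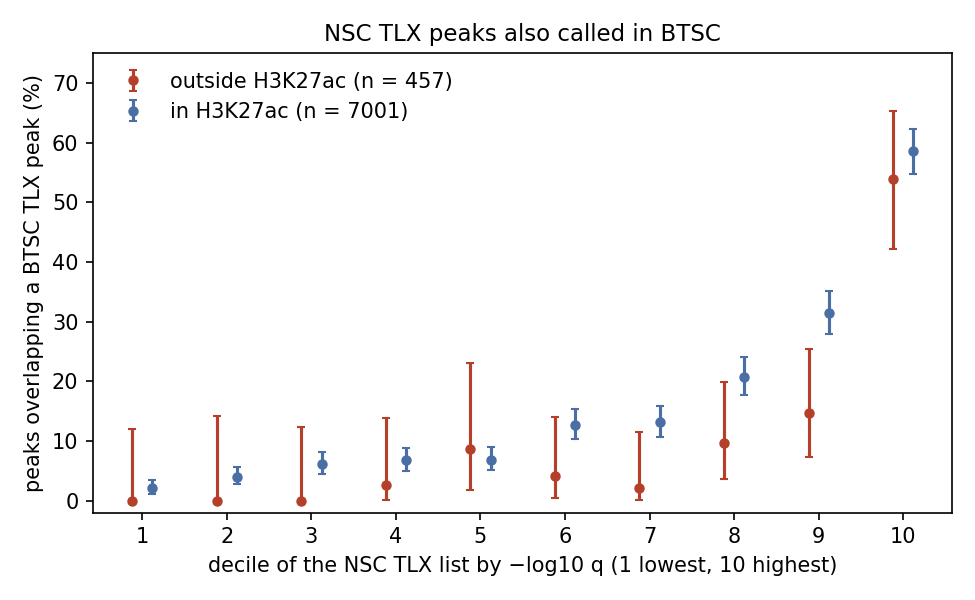
Share of NSC TLX peaks that overlap a BTSC TLX peak, by decile of the NSC list in order of −log10 q, for sites outside and in H3K27ac; error bars are exact 95% binomial intervals. Both shares are highest in the top decile, at 53.8% of unacetylated and 58.5% of acetylated peaks.

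Recurring unacetylated sites had a median NSC fold of 8.41 (7.42 to 9.56), against 5.16 (4.97 to 5.35) for those called in NSC only, and a median width of 621 bp (569 to 696) against 500 bp (488 to 518). By distance, 14 of 65 sites more than 100 kb from H3K27ac recurred (21.5%, 12.3 to 33.5), 40 of 292 at 10 to 100 kb (13.7%, 9.97 to 18.2) and 11 of 98 within 10 kb (11.2%, 5.74 to 19.2), with overlapping intervals. Inside genes 14.9% (10.4 to 20.5) of unacetylated and 16.3% (14.9 to 17.7) of acetylated sites recurred. Between genes 14.8% (10.5 to 20.0) of unacetylated and 20.1% (18.4 to 22.0) of acetylated sites did. A further recurring site lay 32983 bp from the palmitoyltransferase gene Zdhhc21 (10.1 in BTSC and 12.3 in NSC).

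Seen from the other list, 85 of 1436 BTSC TLX peaks (5.92%, 4.76 to 7.27) lay outside H3K27ac of both cultures. Of these, 65 (76.5%, 66.0 to 85.0) overlapped an NSC TLX peak, against 82.1% (79.9 to 84.1) of acetylated BTSC peaks and 81.8% of the BTSC list. None of the 85 had its summit at a gene end, which allows up to 4.25%, against 24.4% (22.2 to 26.8) of acetylated BTSC peaks. Their median BTSC fold was 5.95 (5.72 to 6.41), against 5.14 (5.04 to 5.26) for acetylated BTSC peaks. The 20 without an NSC partner lay inside or near Cmss1, Glis3, Prdm11, Gria1, Aff3, Fgf2 and Nr2e1, among others, with a highest fold of 7.10 at Prdm11. The peak near Nr2e1 lay between genes, 6865 bp from the gene, and had the lowest fold of the 20, 2.86, with a −log10 q of 4.66.

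Few unacetylated sites stood beside another TLX site. An acetylated TLX peak lay within 10 kb of 26 of 457 (5.69%, 3.75 to 8.23), while 1398 of 7001 acetylated peaks (20.0%, 19.0 to 20.9) and 19.1% of the list had another acetylated one that near. An acetylated peak touches H3K27ac by definition, and only 98 of 455 unacetylated sites had H3K27ac within 10 kb. The contrast is therefore partly set by the rule that chose the sites. Another unacetylated site lay within 10 kb of 22 sites (4.81%, 3.04 to 7.20). An unacetylated site lay that near to 24 of 7001 acetylated peaks (0.343%, 0.220 to 0.510) and 0.617% of the list. This contrast too is partly set by the rule. The 22 sites formed 11 pairs and no larger group. The fold of these 22 sites ran from 1.54 to 9.56, and 1 site in each of 2 pairs recurred. The pairs lay inside Rasgef1c, C1qtnf1, Rbms1 and Tmem108, 3139 bp from 9230019H11Rik, and on each of 2 scaffolds. The others lay between genes, 108957 bp from Pcdh18, 242697 bp from Prok2, 65261 bp from Rybp and 136222 bp from Tle3.

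By chromosome, 11 of the 40 TLX peaks on X were unacetylated (27.5%, 14.6 to 43.9), against 442 of 7412 on autosomes (5.96%, 5.43 to 6.53). In the H3K27ac lists, X held 791 peaks in BTSC and 776 in NSC. Folds of the X sites ran from 3.63 to 9.37, and 1 of the 11, 9.61 in BTSC and 9.37 in NSC near the deubiquitinase gene Usp9x, recurred. Among autosomes the share ran from 2.78% on chromosome 15 (8 of 288) to 9.17% on chromosome 9 (41 of 447), and chromosome 6 held the most, 62.

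A protein-coding gene counted as carrying a site when the peak reached its body or lay within 10 kb of it. An unacetylated site was carried by 272 of 21900 genes (1.24%), while 24.1% carried an acetylated one, and 120 of the 272 (44.1%, 38.1 to 50.2) carried both kinds. H3K27ac was present within 1 kb of an end of the gene in neither culture for 126 of the 272 (46.3%, 40.3 to 52.4), against 13.2% (12.3 to 14.1) of genes with an acetylated site and 45.7% (45.0 to 46.4) of all genes. A gene with an acetylated site has H3K27ac in or near it by definition, so the contrast with that group is partly set by the rule. The share of the 272 was close to that of all genes. The median length was 112616 bp for genes with an unacetylated site, 33401 bp for those with an acetylated site and 17146 bp over all genes. Of the 272, 19 carried 2 sites, and no gene carried 3. Among them were the synaptic genes Grin2b, a subunit of the NMDA receptor, and Cplx2, a complexin; Fat3, a giant cadherin; Itga9, an integrin; Prickle2, of planar polarity; and Efna5 and Ctnna2.

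Gene lists of neural stem cells and their lineages held no unacetylated sites. Of 20 neural stem cell genes none carried an unacetylated site and 17 an acetylated one, and the counts were 0 and 9 of 15 for reported TLX targets, 0 and 17 of 21 for TLX cofactors and related nuclear receptors, and 0 and 7 of 7 for nuclear factor I and E protein genes. Astrocyte genes had 0 and 10 of 15, oligodendrocyte lineage genes 0 and 5 of 15, neuron genes 0 and 4 of 16, glioma receptors and ligands 0 and 11 of 20, cell cycle and tumour suppressor genes 0 and 10 of 21, and housekeeping genes 0 and 4 of 12. Microglia, endothelial and other-tissue genes had 0 unacetylated and 1 acetylated each, of 12, 12 and 16. At the 1.24% of all genes, a list of 20 genes comes to less than 1 gene, so these zeros do not set the lists apart.

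Unacetylated sites were carried by genes of 8 lists, beside 1.24% of all genes with an unacetylated and 24.1% with an acetylated site. The lists were chosen with earlier results of these data known, so their shares are descriptions only. Axon guidance genes had 3 of 32 (9.38%), with 23 acetylated (71.9%), and a median length of 254888 bp, against 17146 bp over all genes. The 3 were Efna5, an ephrin ligand, with folds of 6.65 and 3.82 at its sites, Plxna4, a semaphorin receptor, with 6.29, and Epha3. Neural adhesion and cadherin genes had 3 of 46 (6.52%), with 30 acetylated (65.2%), namely Ctnna2 and the teneurin genes Tenm2 (9.56) and Tenm4 (8.80); the median gene length of this list was 772990 bp. Extracellular matrix genes had 2 of 30 (6.67%), with 16 acetylated (53.3%), namely Thsd4 and Adamtsl1 (4.78), and the median gene length of this list was 87475 bp. The Notch, Wnt, Hedgehog, BMP and forebrain lists had 1 each, of 20, 22, 12, 20 and 19, in Maml3, Wnt5b, Gli3, Bmp2 and near Gsx2 (4.40), a homeobox gene of the lateral ganglionic eminence. Acetylated sites were carried by 8, 13, 8, 10 and 9 genes of those lists.

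The boundary of the class is gradual. A further 436 TLX peaks met only H3K27ac peaks with a −log10 q under 5. They resembled the unacetylated sites in position, with 27 of 436 (6.19%, 4.12 to 8.88) at gene ends, and in width, with a median of 540 bp (524 to 557). Their median fold was 4.97 (4.81 to 5.16), and 71 (16.3%, 12.9 to 20.1) recurred in BTSC.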

How the data were processed

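The labels describe fixation for 10 min in 1% formaldehyde, shearing to about 200 bp, 2 ug of antibody and paired reads of 50 bp. The submitters' processing notes name mm10 and, as tools, Bowtie, ChIPseeker and bcl2fastq 2.17.1.14. Which caller and control were used no source used here gives, and a no-antibody library is among the labels and was not analysed here. Each deposited peak list comes from 1 library and holds, per peak, a score and a fold enrichment (a linear ratio), with the p-value and q-value of the call as −log10. These values are the authors' and were used within a list only; folds of both lists are printed side by side without comparison of size.

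Overlaps needed 1 bp. Promoter windows of chromosome 18 and of scaffolds are not used here. Genes (21900 protein-coding) and promoter windows came from RefSeq GRCm38.p6; the gene table has no strand, so gene ends include both ends. Shares have Clopper-Pearson intervals. Pileup k and background b were solved from (k + 1)/(b + 1) = fold and a Poisson tail equal to p, tested on simulated data. Python 3.11.15, pandas 2.3.3 and scipy 1.17.1 were used. Sites, gene lists and rules for named sites (the 12 strongest, fold under 2, lowest rank sums with BTSC, nearest and farthest from H3K27ac, gene ends, pairs, list genes) were chosen with earlier results of these data known; all 13 promoter sites, the 2-site genes and the BTSC sites without partner were named after their values were seen. A few sites that these rules name are not reported here.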

Additional observations from a re-analysis of the deposited data

How the results depend on the processing

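Of 61 recomputed values, 42 stayed within the 95% interval of the reported value, or within 1.5 times a reported count. The share of unacetylated sites that recurred in BTSC did so under all 9 alternatives. The number of sites was 893 when only H3K27ac of −log10 q of at least 5 counted. The median distance was 42107 bp without sites that have H3K27ac within 10 kb, and low-fold sites were then 2; with a fold under 1.5 they were 3. Summits at gene ends were 9.19% with a window of 2.5 kb and 10.5% with all annotated genes. Sites with a neighbour were 42 within 50 kb, and 410 genes had the nearest end. The acetylated share that recurred was 18.4% at a TLX −log10 q of at least 5, 14.6% without chromosomes 1 and 6, 12.9% with an overlap of 50% of both peaks, 13.3% with summits within 200 bp and 13.0% with BTSC peaks of −log10 q of at least 5. With 3 of these the difference turned positive, to 0.902, 0.487 and 0.787 points for overlap, summits and BTSC q, within its interval. Weighted to q it was 22.0% (difference −7.75 points). Alternatives chosen after seeing the data gave 10.5% weighted to width (3.68 points) and 17.7% weighted to both (−3.49 points). Without gene ends it was 17.9%, a difference of −3.05 points (−6.28 to 0.739). The cause was not tested. No paired analysis was possible because each group has 1 library.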
